A study of Homo sapiens with 6 samples.

Results

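The zinc finger genes of chromosome 19 were the protein-coding rows of the count table named ZNF plus a number whose exons lie on chromosome 19. Genes with other names were left out even where they encode zinc fingers. The rule found 243 members among 60662 genes, which is 16.52% of the 1471 protein-coding genes that the table places on chromosome 19. The members were ordered by their lowest start on GRCh38, and 195 of them had enough counts to be tested.

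RNA was measured by stranded mRNA sequencing in the established cell line TC-71, which comes from a human Ewing sarcoma, a tumour of bone. One group of 3 libraries carried a knockout of XG, the gene of the cell-surface glycoprotein behind the Xg blood group, and a group of 3 libraries was wildtype. Both groups were cultured in the same medium with serum, without treatment, and the labels give neither how the knockout was made nor if its cells were pooled or grown from 1 clone. The comparison asks how RNA levels in this line differ with and without the knockout, and replicates that are not labelled as separate cultures may be technical, so each p-value speaks for the spread of these libraries alone.

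C2H2 zinc finger proteins read DNA through repeated fingers in which a pair of cysteines and a pair of histidines hold a zinc ion. Many of them carry a KRAB domain, which binds the corepressor TRIM28 and through it recruits histone methyltransferases and heterochromatin proteins. Human chromosome 19 holds large arrays of KRAB zinc finger genes that arose by tandem duplication, and many of their proteins silence retrotransposons.

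The libraries held 24934343, 31214099 and 28908403 counts in XG knockout and 27765294, 26307681 and 22557187 counts in wildtype. XG itself was at 29.97, 29.98 and 28.9 CPM (counts scaled to library size, here with trimmed mean of M values) in knockout, against 45.4, 47.1 and 44.4 CPM in wildtype, a log2 fold change of -0.63 (adjusted p = 1.65e-06, edgeR quasi-likelihood test). XG RNA was therefore lower but not absent in the libraries labelled as knockout. Knockout replicate 3 stood apart from the other two: the chi-square per gene was 4.38 and 4.01 against knockout replicates 1 and 2, and 2.06 to 2.27 against the wildtype libraries. All 11 Ewing sarcoma markers were tested and summed to 3128 to 3157 CPM in knockout and 3249 to 3293 CPM in wildtype, with CD99 alone called, lower (adjusted p = 0.0302 by edgeR). With each library corrected for a trend on transcript GC content CD99 was not called (adjusted p = 0.142 by edgeR), and EWSR1 and NPY1R were (adjusted p of 0.0026 and 0.0193 by edgeR, both lower). Marker sums of blood, endothelium and skeletal muscle stayed at or below 0.217 CPM in every library. The 4 epithelial markers summed to 3.32 to 3.78 CPM in knockout and 2.19 to 2.45 CPM in wildtype, and KRT18, the only one tested, was higher at 3.26 CPM in knockout and 2.03 CPM in wildtype (adjusted p = 0.0302 by edgeR).

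The members stood in tight arrays. Of the 243, 232 fell into 9 blocks, defined as runs of at least 5 members with neighbouring starts at most 1000000 bases apart, and 11 stood outside them. The largest, block 9, held 57 members from ZNF628 to ZNF446 at 19:55476617-58481230, next to the long-arm end of the chromosome. Block 4, at 19:19668796-23945159 beside the centromere, held 36, and block 8, at 19:51571283-53580269, held 39. Members lay on both strands, 130 on plus and 113 on minus.

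Translated from the longest open reading frame of their GENCODE 29 transcripts, the members had a median of 12 fingers. ZNF208 had 36, ZNF729 34 and ZNF91 31, while no complete finger was found in ZNF738. A stretch resembling the KRAB domain of ZNF10, a KRAB protein of another chromosome, was found in 208 members, and 35 had none. All 36 members of block 4 had such a stretch, against 43 of 57 in block 9. SCAN-like stretches, a dimerisation domain of zinc finger proteins, were found in ZNF444, ZNF274 and ZNF446. The groups differed in base composition: the median GC content of the longest transcript was 41.8% in members with a KRAB-like stretch and 59.6% in those without, with 42.2% over all members and 48% over all genes tested.

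The composition can be read in the coding sequence of single fingers. One complete finger with its linker is shown for 5 members, in lower case with the codons of the zinc-binding cysteines and histidines in capitals, from the plus or minus strand of GRCh38 as the gene is transcribed. They were chosen because these genes recur below at both ends of the GC range.
ZNF714: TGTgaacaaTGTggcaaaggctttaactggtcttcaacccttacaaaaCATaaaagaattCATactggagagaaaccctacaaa
ZNF146: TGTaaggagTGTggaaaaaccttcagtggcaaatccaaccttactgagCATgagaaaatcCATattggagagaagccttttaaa
ZNF71: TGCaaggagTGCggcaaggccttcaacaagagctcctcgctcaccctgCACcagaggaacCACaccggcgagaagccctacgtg
ZNF581: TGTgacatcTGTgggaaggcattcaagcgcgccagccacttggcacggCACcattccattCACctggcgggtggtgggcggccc
ZNF787: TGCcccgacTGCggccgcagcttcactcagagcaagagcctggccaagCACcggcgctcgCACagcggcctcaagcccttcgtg
The finger of ZNF714 (19:21117607-21117690, plus strand) had 36.9% GC and that of ZNF146 (19:36236828-36236911, plus strand) 39.3%. In ZNF71 (19:56622185-56622268, plus strand) it was 61.9%, in ZNF581 (19:55644920-55645003, plus strand) 64.3% and in ZNF787 (19:56088635-56088718, minus strand) 69.0%.

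Most members were expressed at low levels. The mean over 6 libraries reached 10 CPM in 68 members, lay between 1 and 10 CPM in 106 and was below 1 CPM in 69. Tested members had a median of 5.88 CPM, against 22.5 CPM over all genes tested. The 5 members with the highest CPM made up 20.6% of the summed CPM of all 243, and the 10 highest made up 28.9%. Summed over all members, the level was 1982, 2053 and 2000 CPM in knockout (2012 ± 36.8, SD, n = 3) and 2073, 2024 and 2065 CPM in wildtype (2054 ± 26.4, SD, n = 3). The groups overlapped, and the difference of means was -42.5 CPM, with -27.6 CPM without knockout replicate 1 and -67.2 CPM without knockout replicate 2.

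ZNF146, which encodes a protein made almost entirely of fingers without a KRAB domain, had the highest level per length, at 51.3 CPM per kb of summed exon length. It had 214, 220 and 203 CPM in knockout against 221, 208 and 211 CPM in wildtype. ZNF581, ZNF428 and ZNF317 followed at 19.3, 19.01 and 10.8 CPM per kb. The next 6 lay between 6.06 and 6.79 CPM per kb, in the order ZNF260, ZNF787, ZNF584, ZNF358, ZNF574 and ZNF580. Of these 10 members, ZNF317 and ZNF584 had a KRAB-like stretch. ZNF260 also encodes a protein of fingers alone, and its levels of 38.85, 38.77 and 38.15 CPM in knockout lay just above 37.45, 36.85 and 36.75 CPM in wildtype (log2 fold change 0.060, adjusted p = 0.553 by edgeR).

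At the low end, 48 members were not tested, 14 with 0 counts in all 6 libraries and 34 with some. The highest mean among the untested was 0.326 CPM. Of the 14 without a count, 9 lay in block 4: ZNF682, ZNF257, ZNF676, ZNF729, ZNF98, ZNF492, ZNF99, ZNF723 and ZNF728. The others were ZNF177, ZNF578, ZNF677, ZNF154 and ZNF135. A library without a count allows up to 3 counts, which is 0.0948 to 0.133 CPM here, and such limits cover counting error only. ZNF154, known for promoter methylation in many tumours, was thus not detectable at this depth, and ZNF671, known for the same, was below 0.3 CPM in both groups.

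Some members share exons or sequence with other genes. Fragments that map to several places or to overlapping genes on 1 strand were not counted, per the settings in the file headers. More than 10% of the exon length was shared with another gene on the same strand in 38 members, and more than 50% in 6. ZNF177 shared 90.8% of it with the readthrough gene ZNF559-ZNF177. More than 10% of the transcript's 50-base words also occurred in transcripts from another place in 21 members, with a median of 1.14% over all. ZNF98 and ZNF492, both without counts, had 58.0% and 33.3% of such words, and ZNF417 had 38.2%, mostly shared with ZNF587. Levels of these genes are uncertain.

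Members with known roles differed widely in level and did not pass the test. ZNF91 and ZNF93, which repress SVA and LINE-1 retrotransposons, were at 5.38 ± 0.678 and 0.444 ± 0.154 CPM in knockout, against 4.62 ± 0.943 and 0.539 ± 0.0348 CPM in wildtype (SD, n = 3). ZNF274, which brings TRIM28 and SETDB1 to zinc finger genes themselves, averaged 17.5 ± 0.28 CPM in knockout and 18.6 ± 1.26 CPM in wildtype (SD, n = 3). The groups overlapped, and the log2 fold change was -0.084 (SE 0.0655). ZNF331, an imprinted gene, averaged 19.01 CPM in knockout and 20.3 CPM in wildtype. ZNF808, whose loss causes pancreatic agenesis in humans, averaged 4.28 CPM in knockout and 4.33 CPM in wildtype. ZNF587 averaged 19.7 CPM in knockout and 19.3 CPM in wildtype, and its near copy ZNF417 averaged 5.07 CPM in knockout and 5.43 CPM in wildtype. Both act on endogenous retroviruses of the HERV-K family. ZNF558, ZNF675, ZNF611, ZNF43 and ZNF382 were between 6.23 and 16.2 CPM as group means, ZNF85 was at 1.27 CPM in knockout and 0.986 CPM in wildtype, and ZNF90, ZNF528, ZNF536 and ZNF667 were too low to be tested.

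No member passed the threshold in the comparison of XG knockout with wildtype. At an adjusted p of 0.05 by edgeR, 0 of 195 tested members were called, while 1.36% of all 14425 genes tested were. DESeq2 and limma voom also called 0 members, with 1.39% and 1.5% of genes called. DESeq2 gave an adjusted p to 81 of the 195 tested members, so its 0 speaks for those alone, while limma voom gave one to all 195. At an unadjusted p under 0.05, 19 members were listed by edgeR, 4 higher and 15 lower (9.74% of members). Over all genes tested the share was 16.8%, with 6.98% higher and 9.81% lower. At the same limit DESeq2 listed 11 members (5.64%), against 10.2% of genes, and limma voom 20 (10.3%), against 17% of genes. The groups did not overlap in 15 members with higher levels in knockout (7.69%) and in 22 with lower levels (11.3%). The backgrounds were 10.7% and 9.8% of genes tested. In bulk RNA, fewer cells that express a gene and less RNA per cell cannot be told apart.

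The members' fold changes were small. Their median log2 fold change (XG knockout over wildtype, so that values below 0 are lower in knockout) was -0.031, against 0.0019 over all genes tested, and 59.5% were negative, against 49.1%. Without knockout replicate 3 the median was -0.0060 with 50.5% negative, and without knockout replicate 2 it was -0.063 with 65.3% negative. The other 691 tested coding genes of chromosome 19 had a median of -0.11 with 81.5% negative, and 3 were called higher and 37 lower. With a correction for GC content the members were at -0.045 with 66.7% negative, and these other genes at -0.037 with 66.6% negative. With knockout replicate 3 as the only knockout library the medians were -0.042 for the members and -0.016 for the other genes. The 231 tested ZNF genes of other chromosomes had a median of 0.015, with 44.2% negative and 0 called by edgeR at an adjusted p of 0.05. DESeq2 also called 0 of them. At an unadjusted p under 0.05 by edgeR, 12 of the 231 were higher and 17 lower, against 6.98% and 9.81% of all genes tested. The size of the members' fold changes, taken without sign, had a median of 0.0906, against 0.0716 over all genes, and their median SE was 0.111, against 0.0636. A fold change above 1.5 in either direction was reached by 4 members, all of which averaged below 2 CPM.

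**Figure D1:**
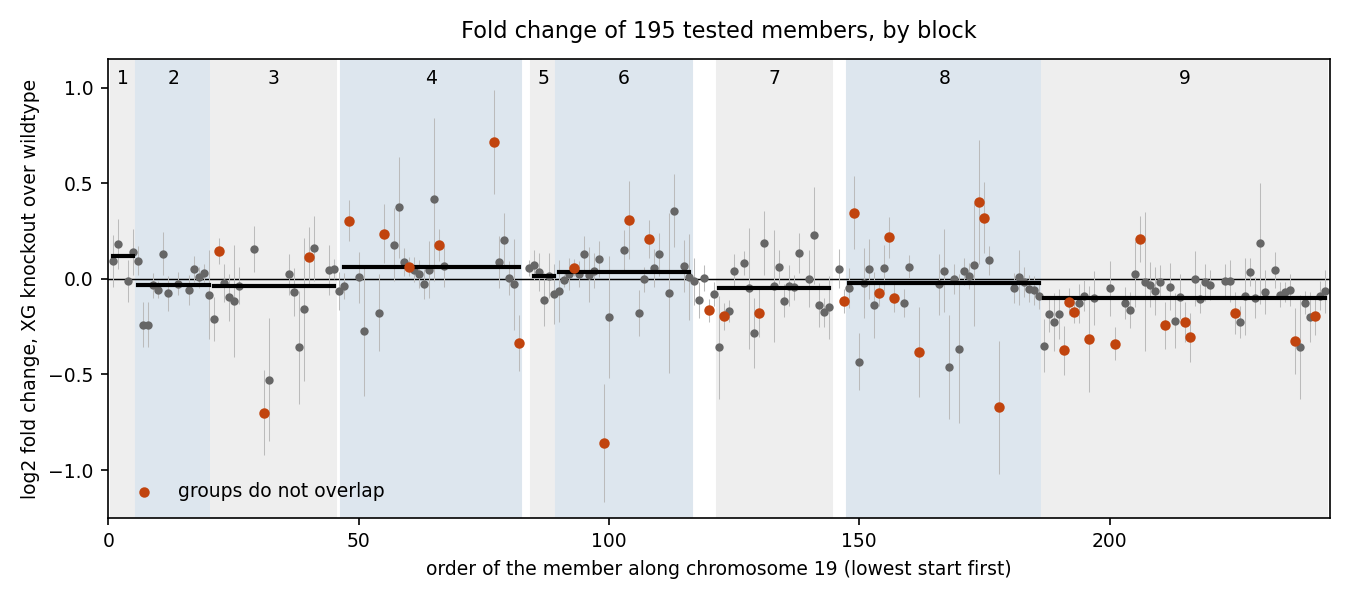
Log2 fold change of the 195 tested members (XG knockout over wildtype) in their order along chromosome 19; thin vertical lines show the SE, orange points are members whose groups do not overlap, and black bars are the medians of the 9 shaded blocks. The bar of block 9 lies at -0.098, and those of blocks 1 and 4 lie at 0.12 and 0.063.

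Among the members with lower values in knockout, the smallest p belonged to ZNF71 (ENSG00000197951.9, 19:56595264-56626481, plus strand), a KRAB zinc finger gene with 13 fingers. It had 9.60, 11.5 and 12.1 CPM in knockout, against 14, 13.2 and 15.1 CPM in wildtype. The groups did not overlap, the log2 fold change was -0.34 (SE 0.0869) and the adjusted p by edgeR was 0.0599. Over the alternative settings the adjusted p of ZNF71 ran from 0.00118 to 0.436, and it passed with a correction for GC content (adjusted p = 0.0263 by edgeR, log2 fold change -0.31), where it was the only member called and 1.26% of all genes were called lower. Without a filter on low counts ZNF71, ZNF433 and ZNF628 were called lower, as were 1.83% of all genes.

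ZNF784 (GC 64.8%, 6 fingers, no KRAB-like stretch) had 3.98, 3.57 and 4.83 CPM in knockout, against 5.21, 5.64 and 5.16 CPM in wildtype (log2 fold change -0.37, adjusted p = 0.144 by edgeR). ZNF581, with 4 fingers and no KRAB-like stretch, had 28.8, 28.05 and 32.3 CPM in knockout, against 32.6, 32.6 and 35.3 CPM in wildtype (log2 fold change -0.17, adjusted p = 0.154 by edgeR). In both genes the groups did not overlap, and in both knockout replicate 3 was the knockout library nearest to wildtype. ZNF428, with 1 complete finger, had 26.15, 26.9 and 30.4 CPM in knockout, against 32.2, 31.2 and 30.3 CPM in wildtype, so that replicate 3 reached the wildtype range. ZNF574 had 26.5, 24.9 and 29.2 CPM in knockout, against 30.9, 29.8 and 29.4 CPM in wildtype, and ZNF576 had 12.6, 11.8 and 12.6 CPM in knockout, against 14.3, 14.4 and 13.5 CPM in wildtype. All of these except ZNF576 had a transcript GC content above 59%, and that of ZNF576 was 51.6%.

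The remaining members of low p and negative sign were AT-rich KRAB genes, mostly of low level. ZNF433 (18 fingers) had 0.964, 1.58 and 1.105 CPM in knockout, against 1.665, 2.46 and 1.91 CPM in wildtype (log2 fold change -0.70, SE 0.223, adjusted p = 0.119 by edgeR). ZNF790 had the lowest fold change among tested members, -0.86 on the log2 scale (SE 0.311), from 0.321, 0.506 and 0.449 CPM in knockout and 0.941, 0.653 and 0.756 CPM in wildtype. The groups of these 2 genes did not overlap, on few counts. ZNF649 had 2.77, 3.32 and 2.97 CPM in knockout, against 4.52, 3.26 and 4.54 CPM in wildtype, and ZNF587B had 10.3, 12.2 and 10.9 CPM in knockout, against 13.5, 11.9 and 13.8 CPM in wildtype. In both, wildtype replicate 2 lay within the knockout range.

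The 10 members with higher values and the smallest p were all KRAB genes of 34.4% to 47.2% GC. ZNF14 (ENSG00000105708.9, 19:19710472-19733112, minus strand, 17 fingers) had 5.745, 5.53 and 6.28 CPM in knockout, against 4.74, 4.80 and 4.67 CPM in wildtype. Its groups did not overlap, its log2 fold change was 0.30 (SE 0.107) and its adjusted p by edgeR was 0.159. ZNF730 had 1.205, 1.455 and 0.898 CPM in knockout, against 0.796, 0.537 and 0.845 CPM in wildtype, a log2 fold change of 0.72 (SE 0.272). It was the highest fold change among tested members, and its groups were separated only by 0.898 CPM in knockout replicate 3 against 0.845 CPM in wildtype replicate 3.

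ZNF627 had 15.8, 15.6 and 16.05 CPM in knockout, against 14, 14.97 and 13.9 CPM in wildtype, and ZNF100 had 14.5, 12.2 and 12.4 CPM in knockout, against 11.4, 12.1 and 10.8 CPM in wildtype. Both were without overlap, at log2 fold changes of 0.15 and 0.18. The other 6, ZNF527, ZNF841, ZNF571, ZNF577, ZNF816 and ZNF543, had log2 fold changes of 0.21 to 0.36 at adjusted p of 0.299 to 0.416 by edgeR, and the groups overlapped in ZNF571 alone.

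**Figure D2:**
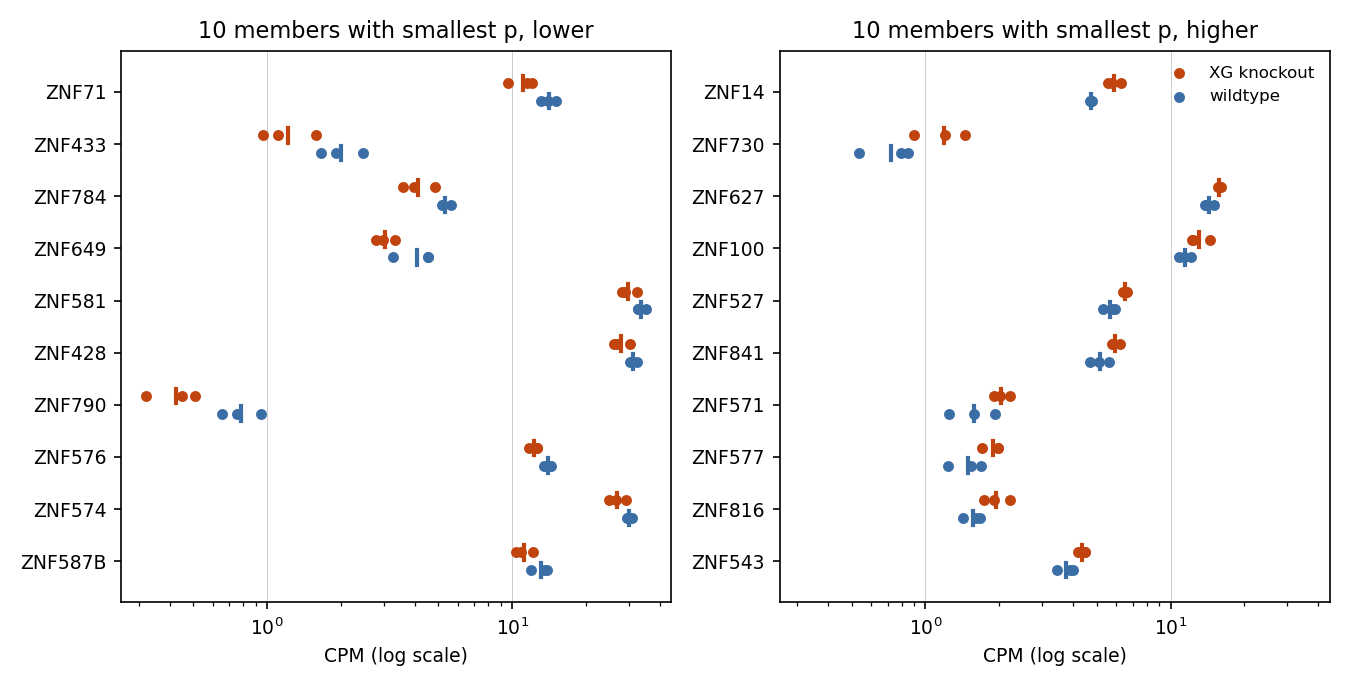
CPM (log scale) of the 10 members of each sign with the smallest p, with 1 point per library, XG knockout in orange above wildtype in blue, and a bar at each group mean. In the left panel the knockout mean lies left of the wildtype mean in every gene, as in ZNF71 with 9.60 to 12.1 CPM in knockout against 13.2 to 15.1 CPM in wildtype, and in the right panel it lies to the right.

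Along the chromosome the blocks differed in sign. The median log2 fold change in block 9 was -0.098, and 45 of its 51 tested members (88.2%) were negative, with 11 members without overlap on the lower side (21.6%) and 1 on the higher. Without overlap on the lower side were also 9.8% of all genes tested and 27.1% of the other tested coding genes of chromosome 19. The other 144 tested members had a median of 0.0033, with 49.3% negative. Blocks 2, 3, 7 and 8 had medians of -0.034, -0.035, -0.0475 and -0.023. Blocks 1, 4, 5 and 6 had medians of 0.12, 0.063, 0.016 and 0.0345, and 26.1% of the tested members of block 4 were negative.

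Within each block single members lay on both sides of 0. The highest log2 fold changes in blocks 1 to 9 were those of ZNF555 (0.18), ZNF699 (0.13), ZNF443 (0.16), ZNF730 (0.72), ZNF302 (0.071), ZNF571 (0.36), ZNF285 (0.23), ZNF888 (0.40) and ZNF543 (0.21). The lowest were those of ZNF57 (-0.0095), ZNF414 (-0.24), ZNF433 (-0.70), ZNF726 (-0.33), ZNF599 (-0.11), ZNF790 (-0.86), ZNF575 (-0.36), ZNF347 (-0.67) and ZNF784 (-0.37). The widest of these belonged to genes of low level. ZNF347 had 0.442, 0.3795 and 0.414 CPM in knockout, against 0.507, 0.960 and 0.489 CPM in wildtype, where wildtype replicate 2 was the highest library. ZNF726, the last member of block 4, went against its block with 2.77, 2.31 and 2.66 CPM in knockout, against 3.40, 3.34 and 2.94 CPM in wildtype, without overlap (adjusted p = 0.252 by edgeR). ZNF414 had 6.19, 6.80 and 9.15 CPM in knockout, against 8.50, 9.21 and 8.50 CPM in wildtype, so that knockout replicate 3 lay within the wildtype range and the others below it.

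Block 9 was the only one of the 9 in which the median of every knockout library lay below that of every wildtype library. As the median of log2 CPM less the wildtype mean, its 51 tested members were at -0.15, -0.098 and -0.087 in knockout, against 0.0076, -0.020 and 0.028 in wildtype. Knockout replicate 3 lay close to replicate 2 in this block. The other tested coding genes of chromosome 19 were also separated, at -0.16, -0.14 and -0.014 in knockout, against -0.0029, 0.011 and -0.011 in wildtype. Those within the span of block 9 were at -0.15, -0.21 and -0.079 in knockout, against 0.015, 0.0084 and -0.020 in wildtype. The summed level of the block was 415.8, 438.0 and 447.1 CPM in knockout (433.7 ± 16.1, SD, n = 3), against 468.7, 464.8 and 477.3 CPM in wildtype (470.3 ± 6.38, SD, n = 3), or 92.2% of wildtype. The sum of block 7 was also lower without overlap, at 156.2 to 160.9 CPM in knockout and 161.4 to 171.6 CPM in wildtype, and that of block 4 higher, at 170.5 to 179.6 CPM in knockout and 166.4 to 170.0 CPM in wildtype.

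The value of block 9 remained near its size with the GC correction and with fewer libraries. With a correction for transcript GC content its median was -0.089, and with knockout replicate 3 as the only knockout library it was -0.0865. Block 4 was at 0.020 with the GC correction and 0.00015 with replicate 3 alone. Block 1, with 4 tested members, kept its size with the GC correction, at 0.11, but not with replicate 3 alone, at 0.0091. Leaving out 1 library at a time gave -0.13 to -0.083 for block 9. Blocks 2, 3, 5 and 6 changed sign in at least 1 of these settings. The other coding genes within the span of block 9 (17 tested) had a median of -0.16, or -0.13 with the GC correction, with 2 called lower. The 28 tested coding genes between blocks 8 and 9 had a median of -0.17, or -0.062 with the GC correction, and the 638 before block 8 had -0.10, or -0.032 with the GC correction.

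**Figure D3:**
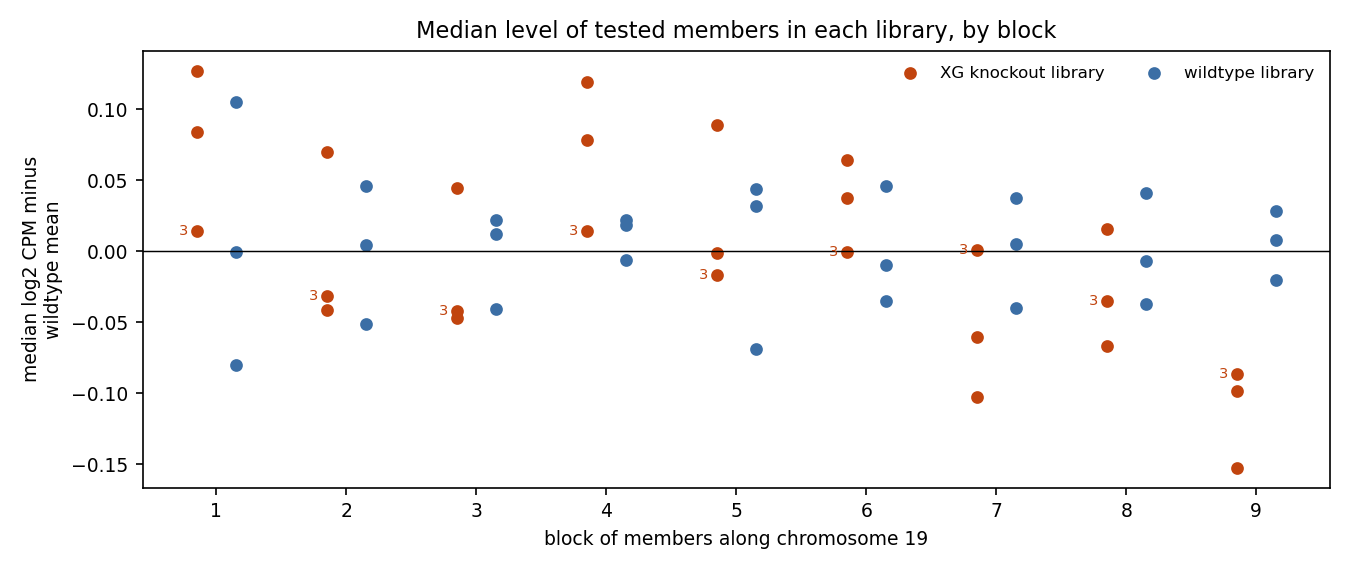
Median over the tested members of each block of log2 CPM less the wildtype mean, 1 point per library, with XG knockout (orange, left) beside wildtype (blue, right) and the digit 3 beside knockout replicate 3. In block 9 the knockout points lie at -0.15, -0.098 and -0.087 and the wildtype points between -0.020 and 0.028, and in the other blocks the ranges overlap.

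Within block 9 the values were not even. The 16 members before its widest gap, ZNF628 to ZNF835 at 19:55476617-56671783, were at a median of -0.19 on the log2 scale, and 13 of 13 tested were negative. The 41 after it, ZNF264 to ZNF446 at 19:57191500-58481230, were at -0.076, and 32 of 38 were negative. With the GC correction the medians were -0.098 and -0.086, and with knockout replicate 3 alone -0.063 and -0.087. Of the block's members with a transcript GC content below 50%, 28 of 34 tested were negative (median -0.066), whereas 58 of 131 such members elsewhere were negative (median 0.016). At 50% GC or more the medians were closer, at -0.19 in the block's 17 tested members and -0.16 in the 13 elsewhere, all of them negative.

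Members without a KRAB-like stretch had lower median values than those with one in the full comparison, and most of them were GC-rich. In the 30 tested members without it the median log2 fold change was -0.17 and 86.7% were negative, against -0.015 and 54.5% in the 165 with it. Of the 35 members with a GC content of at least 50%, 23 had no KRAB-like stretch, and 20 of the 30 tested members without the stretch lay in that GC range. All 30 tested members of that GC range were negative, with a median of -0.17. Members with up to 5 fingers had a median of -0.14, and the classes of 6 to 10, 11 to 15, 16 to 20 and 21 to 36 fingers had medians of -0.035, -0.022, -0.015 and -0.029. The first class had a median GC content of 59.2%. With the GC correction the 5 medians, from few to many fingers, were -0.078, -0.042, -0.038, -0.033 and -0.066. Base composition moved with the KRAB classes, and its part in their difference was not tested beyond the corrected values that follow.

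The relation to GC content was present in 2 of the 3 knockout libraries. Across the 195 tested members, which share libraries and are not independent, Pearson's r between GC content and the deviation from the wildtype mean was -0.45 in knockout replicate 1, -0.45 in replicate 2 and 0.0039 in replicate 3. As library medians, members of at least 50% GC were at -0.24, -0.20 and -0.041 in knockout, against -0.0077, 0.036 and -0.021 in wildtype. With the GC correction the median log2 fold change of members without a KRAB-like stretch was -0.094, and that of members with one was -0.037. With knockout replicate 3 alone the medians were -0.042 without the stretch and -0.040 with it. The other coding genes of chromosome 19 showed the same library pattern, at -0.16, -0.14 and -0.014 in knockout.

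**Figure D4:**
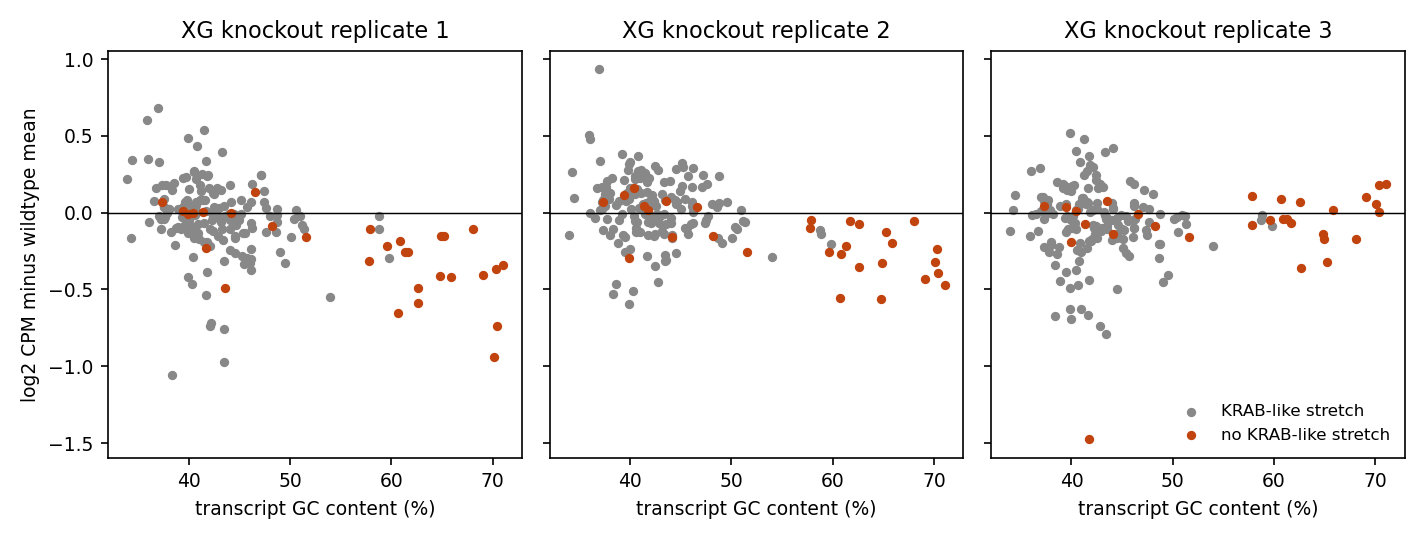
Log2 CPM less the wildtype mean (y axis) against the GC content in percent of the longest transcript (x axis) for the 195 tested members in each knockout library, with members without a KRAB-like stretch in orange. Members of high GC content lie below 0 in replicates 1 and 2 (r of -0.45 in each) and around 0 in replicate 3 (r of 0.0039).

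Which members were called depended on knockout replicate 3. Without that library edgeR called 1 member higher and 11 lower at an adjusted p of 0.05, with 3.58% of all genes called higher and 9.1% called lower in that fit. The member called higher was ZNF730. The 11 lower were ZNF358, ZNF414, ZNF574, ZNF428, ZNF628, ZNF579, ZNF865, ZNF784, ZNF581, ZNF787 and ZNF71, all with at least 50% GC, 10 without a KRAB-like stretch and 7 in block 9. ZNF787 had 19.6, 21.4 and 28.6 CPM in knockout, against 26.45, 26.9 and 22.7 CPM in wildtype, and ZNF358 had 10.65, 10.5 and 15.2 CPM in knockout, against 15.5, 14.9 and 12.3 CPM in wildtype. In both, replicate 3 lay at or near the top of all 6 libraries. ZNF83 was lower in the fit with replicate 3 as the only knockout library, which leaves no knockout replicates. It had 1.61, 1.93 and 0.621 CPM in knockout, against 2.06, 1.84 and 1.82 CPM in wildtype, so that the value furthest from wildtype was that of replicate 3. ZNF628, ZNF579, ZNF865 and ZNF83 are named after their values were seen.

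The promoters of the members shared a short motif more often than other promoters. RefSeq promoter sequences, 250 bases before to 50 after the start on GRCh38.p14, were found for 212 members. CCAAT on either strand (ATTGG when read on the other) was present in 113 of them (53.3%), against 36.6% of 15085 coding promoters, 37.7% of 930 other promoters of chromosome 19 and 43.6% of 211 promoters of ZNF genes elsewhere. The longer CCAATCA, which contains CCAAT, was present in 29.2% of member promoters, against 8.82% of all coding promoters and 15.6% of ZNF promoters elsewhere. Copies that arose by duplication share sequence, so these promoters are not independent.

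The motif followed the blocks. It was present in 28 of 28 promoters of block 4, 22 of 24 of block 3 and 5 of 5 of block 1, and in 31 of 52 of block 9. In blocks 2, 5, 6, 7 and 8 it was present in 4 of 14, 2 of 4, 6 of 25, 4 of 19 and 9 of 32. Members with it (92 tested) and without it (85 tested) had median log2 fold changes of -0.035 and -0.025. The promoters of ZNF714 and ZNF100 in block 4 and ZNF627 in block 3 are shown as examples with the motif. That of ZNF71 in block 9 is an example without it, although 31 of 52 promoters of its block hold it. All are given from the strand of the gene, in lower case with CCAAT in capitals.
ZNF714: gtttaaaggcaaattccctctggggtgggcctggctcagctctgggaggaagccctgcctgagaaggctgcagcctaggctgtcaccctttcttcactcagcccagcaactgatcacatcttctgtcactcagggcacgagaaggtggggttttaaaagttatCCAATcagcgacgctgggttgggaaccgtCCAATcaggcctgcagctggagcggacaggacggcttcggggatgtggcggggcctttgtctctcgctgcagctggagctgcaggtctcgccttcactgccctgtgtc
ZNF100: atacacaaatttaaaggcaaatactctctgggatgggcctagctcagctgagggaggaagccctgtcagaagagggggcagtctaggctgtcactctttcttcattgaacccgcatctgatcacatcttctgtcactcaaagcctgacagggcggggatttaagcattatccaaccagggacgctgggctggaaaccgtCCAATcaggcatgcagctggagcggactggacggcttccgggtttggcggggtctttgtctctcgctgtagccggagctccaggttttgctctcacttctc
ZNF627: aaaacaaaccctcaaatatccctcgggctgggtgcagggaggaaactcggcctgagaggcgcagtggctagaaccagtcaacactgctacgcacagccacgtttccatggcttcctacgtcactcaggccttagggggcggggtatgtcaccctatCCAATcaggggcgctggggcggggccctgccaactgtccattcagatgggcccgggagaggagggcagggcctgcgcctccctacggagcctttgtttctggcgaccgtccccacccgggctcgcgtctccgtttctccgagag
ZNF71: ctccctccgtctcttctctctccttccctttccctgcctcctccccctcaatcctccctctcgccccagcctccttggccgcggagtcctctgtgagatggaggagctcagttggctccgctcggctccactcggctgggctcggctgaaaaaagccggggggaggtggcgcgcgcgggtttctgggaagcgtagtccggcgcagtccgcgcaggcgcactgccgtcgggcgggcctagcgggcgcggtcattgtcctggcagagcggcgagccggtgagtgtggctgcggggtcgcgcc
The window of ZNF714 (19:21081953-21082252, plus strand) holds the motif at 2 places, and those of ZNF100 (19:21767530-21767829, minus strand) and ZNF627 (19:11597233-11597532, plus strand) hold it once. Each of these copies is part of a CCAATCA. The window of ZNF71 (19:56595052-56595351, plus strand) does not hold these letters and has 70.0% GC, against 59.0% in ZNF714, 54.3% in ZNF100 and 63.0% in ZNF627. ZNF714, the most abundant member of block 4, had 32.8, 34.75 and 32.6 CPM in knockout, against 31.4, 32.6 and 32.0 CPM in wildtype, with adjacent ranges and a log2 fold change of 0.063 (adjusted p = 0.569 by edgeR).

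**Figure D5:**
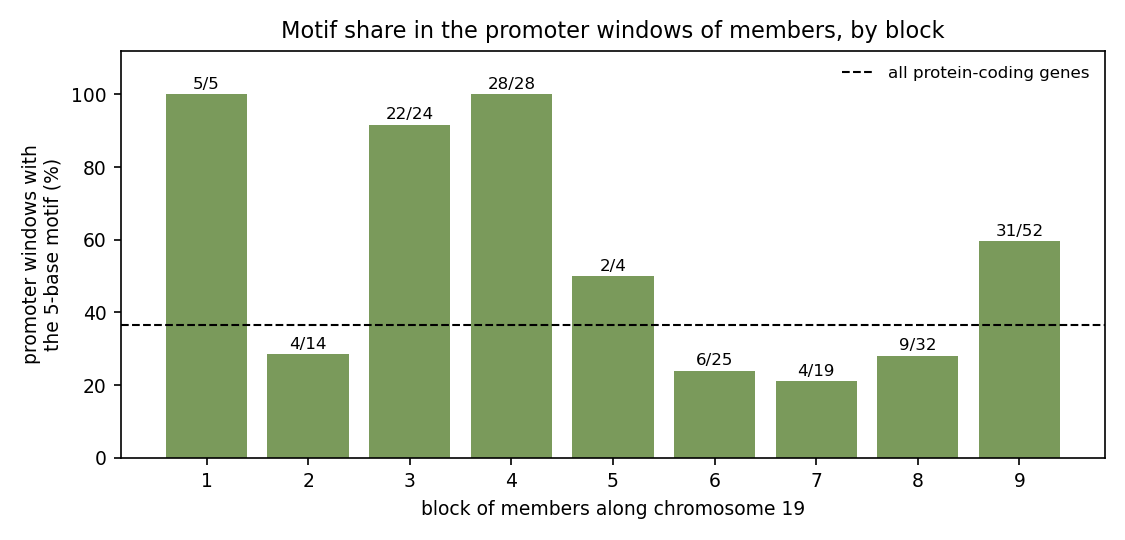
Share of promoter windows (y axis, percent) that hold the 5-base motif on either strand, for the members of each of the 9 blocks (x axis), with the count of windows above each bar and the share over all coding promoters as a dashed line at 36.6%. Blocks 1, 3, 4, 5 and 9 lie above the line, with all 5 and all 28 windows in blocks 1 and 4, and blocks 2, 6, 7 and 8 lie below it.

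The partners through which KRAB proteins act were mostly at like levels in both groups. Of 23 tested genes of that list 0 were called higher and 3 lower by edgeR, with a median log2 fold change of 0.0052, where 0.444% of all genes were called higher and 0.915% lower. TRIM28, the corepressor that KRAB domains bind, lies beyond the last member of block 9, ZNF446, at 19:58544064-58550722. TRIM28 had 745, 707 and 779 CPM in knockout, against 854, 865 and 858 CPM in wildtype, without overlap. Its level fell by 0.21 on the log2 scale (SE 0.0303, adjusted p = 0.00212 by edgeR). With the GC correction the log2 fold change was -0.099 (adjusted p = 0.0343 by edgeR), and with the GC correction and the replicate block the adjusted p was 0.111.

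DNMT1, the maintenance DNA methyltransferase, fell to 381, 391 and 408 CPM in knockout, against 424, 433 and 440 CPM in wildtype (log2 fold change -0.14, adjusted p = 0.0262 by edgeR). Like TRIM28, it lies on chromosome 19, where 37 of the 691 tested coding genes that are not members were called lower, these 2 among them. EHMT2, a histone methyltransferase of chromosome 6, fell to 143, 140 and 154 CPM in knockout, against 161, 161 and 166 CPM in wildtype (log2 fold change -0.16, adjusted p = 0.036 by edgeR). With the replicate block, and on leaving out wildtype replicate 1, 2 or 3 or knockout replicate 1 or 2, TRIM28 was the only partner called lower, so that the calls of DNMT1 and EHMT2 were lost. The EHMT2 call was also lost with the GC correction (log2 fold change -0.073, adjusted p = 0.162 by edgeR). DNMT1 was still called with the GC correction (log2 fold change -0.098, adjusted p = 0.0105 by edgeR). With knockout replicate 3 alone, which leaves no knockout replicates, the log2 fold changes were -0.085 for DNMT1 and -0.077 for EHMT2. SETDB1, the methyltransferase that TRIM28 recruits, averaged 60.01 CPM in knockout and 58.9 CPM in wildtype and did not pass. ZNF446, the member nearest to TRIM28, had 5.705, 5.34 and 5.59 CPM in knockout, against 5.07, 5.95 and 6.45 CPM in wildtype, and ZNF554, the first member of the chromosome, had 3.82, 4.46 and 3.73 CPM in knockout, against 3.26, 4.11 and 3.96 CPM in wildtype. The groups overlapped in both.

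The authors' deposited table of the same comparison gave no member an adjusted p under 0.05. Of the 7482 genes with an adjusted p in the authors' deposited table, 199 were under 0.05. The sign of its fold changes is not stated in the table, and matched knockout over wildtype in 99.2% of tested genes. An adjusted p was given to 21 members in the authors' deposited table, the lowest being 0.229 for ZNF581. At an unadjusted p under 0.05 the authors' deposited table listed 9 of the 229 members with a p, all lower. Over all genes in the authors' deposited table the share was 9.63%.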

How the data were processed

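The deposited counts are raw whole-number counts; per the file headers the authors counted fragments with featureCounts 2.0.1 over GENCODE 33 exons, paired-end and by strand. Reads were aligned with STAR 2.7.6a to GRCh38, per the submitters' processing notes. The authors' deposited table gives baseMean, a mean signal of normalized counts, log2 fold changes, a test score and p-values, from DESeq2 1.38.3 per the submitters' processing notes.

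Counts were filtered with filterByExpr (minimum count 10, minimum total 15), scaled by trimmed mean of M values and tested with edgeR 4.0.16 in R 4.3.3 (quasi-likelihood, two-sided, no covariates), with Benjamini-Hochberg adjustment over 14425 genes at a threshold of 0.05. SDs are over 3 libraries. Library medians used log2(CPM + 0.1). Other settings used DESeq2 1.42.0, limma 3.58.1, other scalings and filters, a replicate block, a lowess correction (span 0.5) for the GC content of the longest GENCODE 29 transcript, and fewer libraries. All 243 members and 99.5% of tested genes had a GC value.

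A KRAB-like stretch was a local alignment (BLOSUM62) scoring at least 80 to the first 75 residues of ZNF10. The lowest score counted was 88 and the highest left out was 65. A SCAN-like stretch scored at least 150 to the first 130 residues of ZNF174. Fingers were matched as a pair of cysteines with 2 residues between them, then 12 residues and a pair of histidines with 3 to 5 between them. The scripts were tested on simulated data.

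Members, lists and tests were chosen with earlier results of these data known. Named genes were the 10 highest per exon length, the extremes of each block, the 10 smallest p of each sign, the first and last member, the neighbour of TRIM28, members of known role, and partners past the threshold. Not every gene under the rule is printed with all its values.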

Additional observations from a re-analysis of the deposited data

How the results depend on the processing

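Under 11 of 16 alternatives no member was called. The setting with knockout replicate 3 alone has no knockout replicates, so its calls carry no spread among knockout libraries. The number called lower was 3 without a filter on low counts (ZNF433, ZNF628 and ZNF71), where 1.83% of all genes were. It was 1 with the GC correction (ZNF71), where 1.26% of all genes were, and 1 with the GC correction and replicate block (ZNF71). ZNF83 was lower with knockout replicate 3 alone. Leaving out 1 library at a time gave 0 to 1 members higher and 0 to 11 lower. KRAB partners called lower numbered 5 without a filter, 1 with the replicate block, 0 with the GC correction and replicate block, and 1 to 5 with 1 library left out. The 5 of the last range came without knockout replicate 3, where 9.1% of all genes were called lower. Without a filter 1.83% of all genes were called lower. The median of the members ran from -0.0631 to -0.00601 with 1 library left out. The share of negative members was 67.69% with the GC correction and replicate block and 50.51% to 65.31% with 1 library left out.

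Block medians moved for block 1 (0.0091 with knockout replicate 3 alone) and block 4 (0.00015 in the same setting). They also moved for block 6 (0.000885 with the GC correction and replicate block, -0.0106 with replicate 3 alone). Block 8 moved to -0.0708 with starts up to 2000000 bases apart, where it was joined with block 9 and both had this median. The medians are given next for each block. With 1 library left out they ran from 0.0471 to 0.14 in block 1, -0.0426 to 0.00101 in block 2, -0.0567 to 0.0257 in block 3, 0.0313 to 0.0821 in block 4, -0.062 to 0.0495 in block 5, -0.0182 to 0.0719 in block 6, -0.127 to -0.0428 in block 7, -0.0297 to -0.00501 in block 8 and -0.129 to -0.0831 in block 9.

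Signs turned for ZNF414 (0.0659), ZNF554 (-0.0112) and ZNF575 (0.0976) with knockout replicate 3 alone, for ZNF446 (0.0024) with the GC correction and for ZNF57 (0.000256) with upper quartile scaling. With 1 library left out the log2 fold change ran from -0.0387 to 0.381 for ZNF285, -0.16 to 0.00674 for ZNF446, -0.00766 to 0.165 for ZNF554 and -0.0718 to 0.0529 for ZNF57. The causes were not tested.

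Same-numbered libraries did not deviate together (correlations of -0.0459, -0.0239 and -0.0512), so the numbers were not taken to pair them. The replicate block left 0 members called higher and 0 lower. Members of low count limit precision: the median SE of members was 0.111.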
